A study of Mus musculus with 2 samples.

Results

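The lysosomal cathepsins are the proteases that break down proteins inside lysosomes, the acidic digestive compartments of the cell. Members were chosen by name: every probe set whose gene symbol in the platform's annotation was Ctsa, Ctsb, Ctsc, Ctsd, Ctse, Ctsh, Ctsk, Ctsl, Ctss or Ctsz. All 10 genes were measured, by 17 of 12422 probe sets, and they were 10 of 8251 genes with a probe set of their own. Ctsg, a serine protease of neutrophil granules that shares the cathepsin name, is not a member.

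The starting material was total RNA of mouse spleen bought from a supplier, and the labels give no strain, age, sex, allele or treatment. It was hybridised to 2 arrays, called array 1 and array 2 after their titles, which form 1 group. No condition was compared with another, so no p-value was computed, and the SDs below (n = 2 arrays) measure only the spread between the arrays, which may be technical. The labels do not say whether the RNA came from pooled animals. In whole tissue, fewer cells of a type and less RNA per cell cannot be told apart.

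Most cathepsins are cysteine proteases of the papain family, a few are aspartic proteases of the pepsin family, and Ctsa is a serine carboxypeptidase. They are made as inactive precursors, carried to endosomes and lysosomes mostly by mannose 6-phosphate receptors, and activated where the pH is low. In the spleen they are known from macrophages, which digest old red blood cells, and from B cells and dendritic cells, which cut proteins into peptides for display on MHC class II molecules.

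As a check of the label, the defining markers of spleen cells were read first. All 3 measured B cell markers, all 6 macrophage markers, all 3 dendritic cell markers and both measured red cell precursor markers were bright, that is, above the 60th percentile of the array, 346.32 on array 1 and 342.22 on array 2, each time. Over all genes with a probe set of their own, 45.2% were bright. Pancreatic acinar genes were bright too, in 3 of 3 cases. Ctrb1 gave 23276.2 on array 1 and 25030.4 on array 2, Prss2 gave 11363.1 and 11506.5, and Cela1, an elastase, gave 8838.8 and 8920.3. Of the liver markers 2 of 3 were bright, with the plasma protein Alb at 2170.6 and 2597.1 and the lipoprotein Apoa1 at 530.7 and 632. The part of such transcripts in the cathepsin signals was not tested. Background came from 15 control probe sets for bacterial genes foreign to mouse, of which the highest gave 95 on array 1 and 76.2 on array 2.

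Cathepsin genes were bright in 9 of 10 cases, against 45.2% of all genes with a probe set of their own. Their median log2 signal was 10.75, beside 8.29 over all those genes. By catalytic class, 6 of 7 cysteine cathepsins, 2 of 2 aspartic ones and the serine carboxypeptidase Ctsa were bright. The exception was Ctsk. All 10 genes had a probe set that outshone every bacterial control on both arrays. Among the 17 probe sets 12 were bright, against 37.9% of all probe sets, and 14 outshone every bacterial control on both arrays, against 65.5%. Probes of different sequence bind with different strength, so the members are not ranked against each other.

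**Figure D1:**
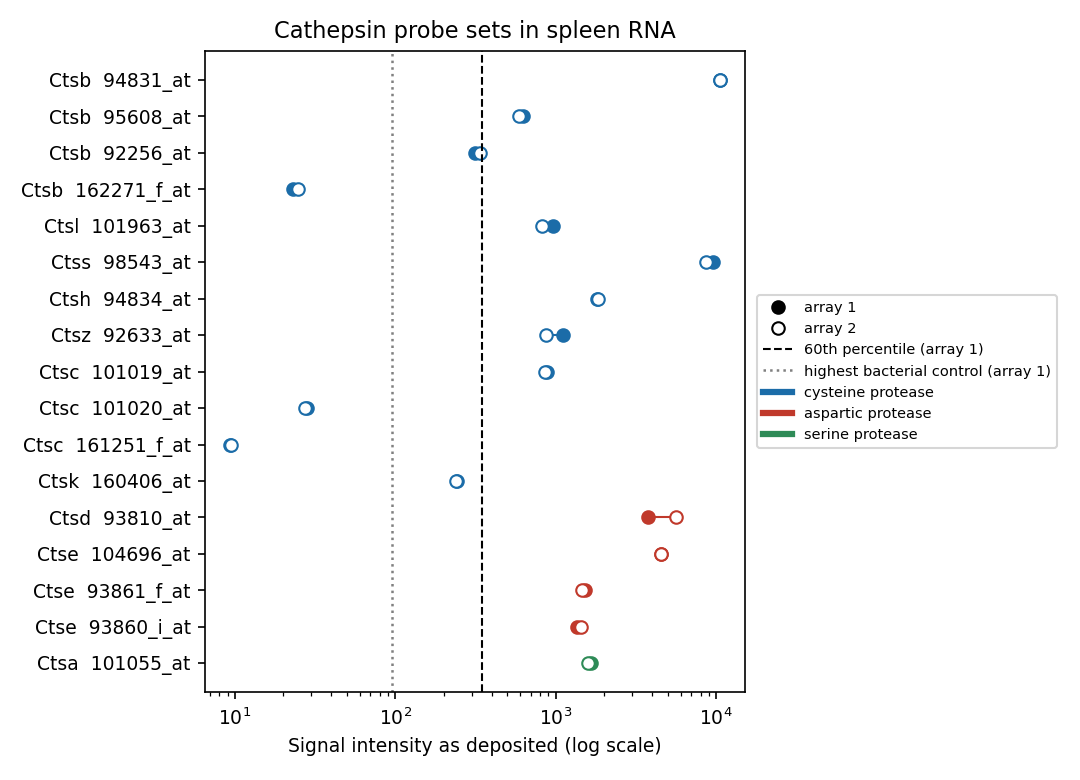
Signal intensity as deposited (x axis, log scale) of the 17 cathepsin probe sets (rows, named by gene and probe set), with array 1 as filled and array 2 as open circles, coloured by catalytic class. The dashed line is the 60th percentile and the dotted line the highest bacterial control, both of array 1. In most rows the circles overlap, Ctsd has the widest gap, and Ctsb and Ctsc each have dim probe sets beside a bright one.

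Promoter windows from RefSeq (build GRCm38.p6), each running from 250 bases before to 50 after a gene start, were found for 7 of 10 members, Ctsa with 2 windows. Motifs were searched on both strands, and they were picked after these windows had been read. The palindrome CACGTG is the core of the E-box bound by Tfeb, a regulator of lysosomal genes, and TCACGTGA is a longer form that contains it. A pair of GAAA parted by 2 bases of any kind is the core of an element bound by interferon regulatory factors, and Ctss is known to be induced by interferon gamma. CACGTG occurred in the windows of 3 of 7 members (Ctsa, Ctsd and Ctsl), against 8.09% of all genes with a window. TCACGTGA occurred in 2 of 7 (Ctsa and Ctsd), against 1.12%, and the interferon element core in 1 of 7 (Ctss), against 3.99%. Only these motifs were searched, so other features of the windows are not described. The stretches that hold the matches before the start follow, with the matched letters in capitals.
Ctsa, chr2:164833731-164833772, plus strand: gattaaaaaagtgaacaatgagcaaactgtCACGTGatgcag
Ctsd, chr7:142387890-142387955, minus strand: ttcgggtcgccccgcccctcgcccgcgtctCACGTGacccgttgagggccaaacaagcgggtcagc
Ctsd, chr7:142388037-142388077, minus strand: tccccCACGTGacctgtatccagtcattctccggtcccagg
Ctsl, chr13:64370721-64370770, minus strand: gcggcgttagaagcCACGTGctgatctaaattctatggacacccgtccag
Ctss, chr3:95526735-95526785, plus strand: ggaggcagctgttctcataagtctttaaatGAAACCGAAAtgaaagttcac
In Ctsa the E-box core began 12 bases before the start, and a further one began at base 6 after it. In Ctsd the E-box cores began 98 and 245 bases before the start, and in Ctsl 236 bases before. The interferon element core of Ctss began 21 bases before the start. A match is a description of letters and not evidence that a factor binds there. Windows of Ctsc, Ctsk and Ctsz held none of these motifs, nor did the other window of Ctsa. Ctsk and Ctss are neighbours among the coding genes of chromosome 3, and Ctss was bright where Ctsk was not.

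**Figure D2:**
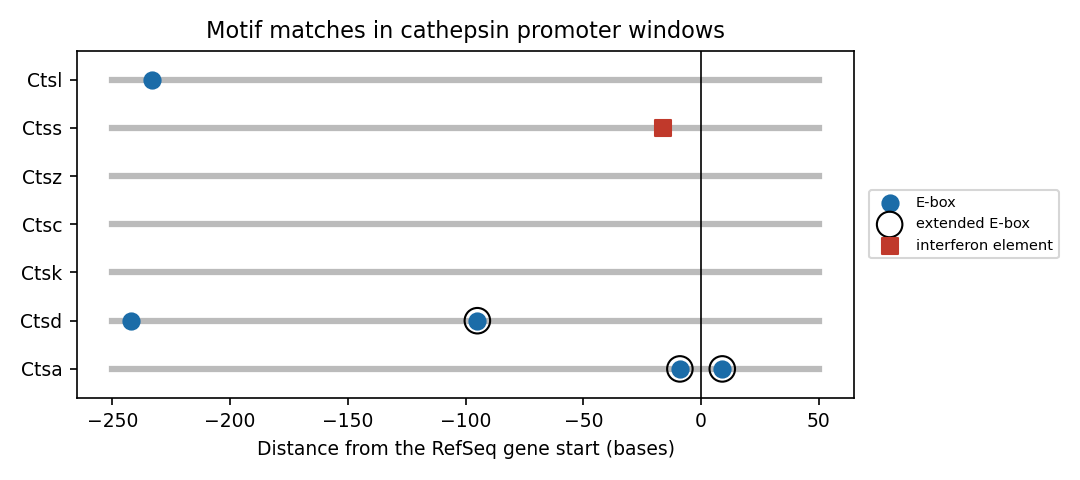
Position of motif matches in the promoter windows of 7 cathepsin genes (rows), as distance from the RefSeq gene start in bases (x axis). Filled circles are E-box cores, open rings the longer form around them and the square the interferon element core. Ctsa and Ctsd each have 2 E-box cores, Ctsl has 1 and Ctss alone has the interferon element core.

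Several cysteine cathepsins cut inside protein chains. Ctsb, an endopeptidase that also trims peptides from their carboxyl end, gave 10584.3 on array 1 and 10500.8 on array 2 at its brightest probe set (94831_at), a mean of 10543 ± 59.0. The other probe sets annotated to it gave very different values. Probe set 95608_at gave 625.5 and 589.1 on arrays 1 and 2 and was bright. Probe set 92256_at gave 315.1 and 336 and missed the cutoff on both arrays, and 162271_f_at, at 23.2 and 24.6, lay among the bacterial controls. The suffix of 162271_f_at marks probes shared by similar sequences, and how well it reads Ctsb was not tested. Each probe set repeated its own value closely, so the arrays did not disagree about Ctsb, only the probe sets did. With the mean log2 signal over all 4 probe sets in place of the brightest, and the dimmest raised to the floor of 41.8, Ctsb stood at 543 and was still bright.

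Ctsl, an endopeptidase of most cell types, had 1 probe set, at 965.6 on array 1 and 823 on array 2, a mean of 894 ± 101. Ctss is known from B cells, dendritic cells and macrophages. It makes a late cut in the invariant chain bound to MHC class II, and gave 9510.7 and 8649, a mean of 9080 ± 609. Both genes were bright on each array and somewhat higher on array 1, by 0.23 and 0.14 on the log2 scale. Gaps of at least these sizes were found for 23% and 43.8% of the 4708 bright probe sets, so they were within the usual spread between the arrays.

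The substrates and partners of Ctss in class II antigen processing were also bright, in 6 of 6 cases, against 45.2% of all genes. Cd74, the invariant chain itself, gave 30756.8 on array 1 and 30785.5 on array 2. Ifi30, a thiol reductase that opens disulphide bonds of antigens in lysosomes, gave 3416.2 and 3145.1, and the peptide exchange chain H2-DMa gave 3444.1 and 3533.2.

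Of the remaining cysteine cathepsins, Ctsh, Ctsz and Ctsc act mainly from the ends of their substrates. Ctsh, an aminopeptidase, gave 1798.3 on array 1 and 1845.3 on array 2, a mean of 1822 ± 33.2. Ctsz, also called cathepsin X, a carboxypeptidase, gave 1113.8 and 874.7, a mean of 994 ± 169. Its log2 difference of 0.35, array 1 minus array 2, was the widest in that direction among the bright cathepsin genes, and 10.1% of bright probe sets were at least as far apart.

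Ctsc, or dipeptidyl peptidase I, removes dipeptides and thereby activates the serine proteases of neutrophil and cytotoxic granules. Probe set 101019_at gave 876.6 on array 1 and 861 on array 2, a mean of 869 ± 11.0, and was bright. The other probe sets of Ctsc were at background: 101020_at gave 28.2 and 27.3, and 161251_f_at, whose suffix marks shared probes, gave 9.3 and 9.5, all below the highest bacterial control. The call of Ctsc as bright therefore rested on 1 of 3 probe sets, and with the mean log2 signal over them Ctsc was not bright.

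Of the 6 measured serine proteases that Ctsc activates, 3 were bright, a share near the 45.2% of all genes. They were Elane, neutrophil elastase, at 1134.8 on array 1 and 1066.8 on array 2, Prtn3, proteinase 3 of neutrophils, at 774 and 852.6, and the granzyme Gzma at 440.1 and 473.8. Gzmb gave 293.2 and 255.7 and Ctsg gave 275.7 and 290.9. Both lay above the highest bacterial control on each array without being bright. Gzmk, at 9.3 and 6.5, lay among the bacterial controls.

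Ctsk, the collagen-degrading cathepsin of bone-resorbing osteoclasts, was the member that was not bright. It gave 241.9 on array 1 and 238.6 on array 2, a mean of 240 ± 2.33, above the highest bacterial control and below the cutoff on both arrays. Of the osteoclast markers measured, the acid phosphatase Acp5, which some macrophages also make, gave 2264.9 and 2108.3, whereas the calcitonin receptor Calcr gave 8.6 and 7.7, as dim as the bacterial controls. All 4 fibroblast markers were bright, against 45.2% of all genes. Among them were the collagen chains Col1a1, at 931.6 and 938.3, and Col1a2, at 1766.3 and 2136.1. Ctsk has a single probe set here, so its lower signal was not checked by another.

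The aspartic cathepsins were both bright, and they differed in how closely the arrays matched. Ctsd, the main aspartic endopeptidase of lysosomes, gave 3769.9 on array 1 and 5597.2 on array 2, a mean of 4684 ± 1292. Its log2 difference, array 1 minus array 2, was -0.57, a gap of 1.49-fold, and 1.72% of bright probe sets were at least as far apart in either direction. Among the other 534 bright probe sets with a mean within 2-fold of that of Ctsd, a window chosen after its values were seen, 2 were at least as far apart and 0 were higher on array 2 by as much. Ctsd has 1 probe set, so no other reading of the gene is at hand, and what caused the gap was not tested.

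Ctse, an aspartic protease of endosomes known from stomach lining, red blood cells and immune cells, had 3 bright probe sets. Probe set 104696_at gave 4503.1 on array 1 and 4552 on array 2, a mean of 4528 ± 34.6. Probe sets 93861_f_at and 93860_i_at, designed from another database entry than the first, gave 1521.7 and 1456.1, and 1354.3 and 1441.4. Their suffixes mark probes shared by similar sequences or an incomplete probe set, so they may read other transcripts as well. The log2 differences of the 3 probe sets lay between -0.09 and 0.06. Of the stomach markers, Tff1, a secreted peptide of the gastric lining, was bright at 917.3 and 793.1, and the proton pump subunit Atp4a, at 330.5 and 275.8, was not. The part of stomach RNA in the Ctse signal was not tested.

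Ctsa, the serine carboxypeptidase also called protective protein, shields beta-galactosidase and neuraminidase in a lysosomal complex. It gave 1663.1 on array 1 and 1587.4 on array 2, a mean of 1625 ± 53.5. Its partners, picked here for that role after their values were seen, were the beta-galactosidase Glb1, bright at 499.4 and 473.4, and the neuraminidase Neu1 at 415.8 and 267.8. Neu1 passed the cutoff on array 1 alone.

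Set together, the bright cathepsin genes differed between the arrays about as much as all bright probe sets, which were not matched to them for brightness. Their median log2 difference, array 1 minus array 2 and centred on the median of all bright probe sets, was 0.02, with 6 genes higher on array 1 and 3 higher on array 2. The 12 bright cathepsin probe sets had a pooled SD of 0.151 on the log2 scale, beside 0.152 over all 4708. Ctsd decided this value: without it the pooled SD of the other 11 was 0.0994. The other 534 bright probe sets with a mean within 2-fold of that of Ctsd had a pooled SD of 0.1004. Most of the other 11 cathepsin probe sets lay outside that window, so this value is not a matched background for them. Only Ctsd lay beyond the limit that 95% of bright probe sets kept, a gap of 1.36-fold, which 5.01% of bright probe sets exceeded.

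**Figure D3:**
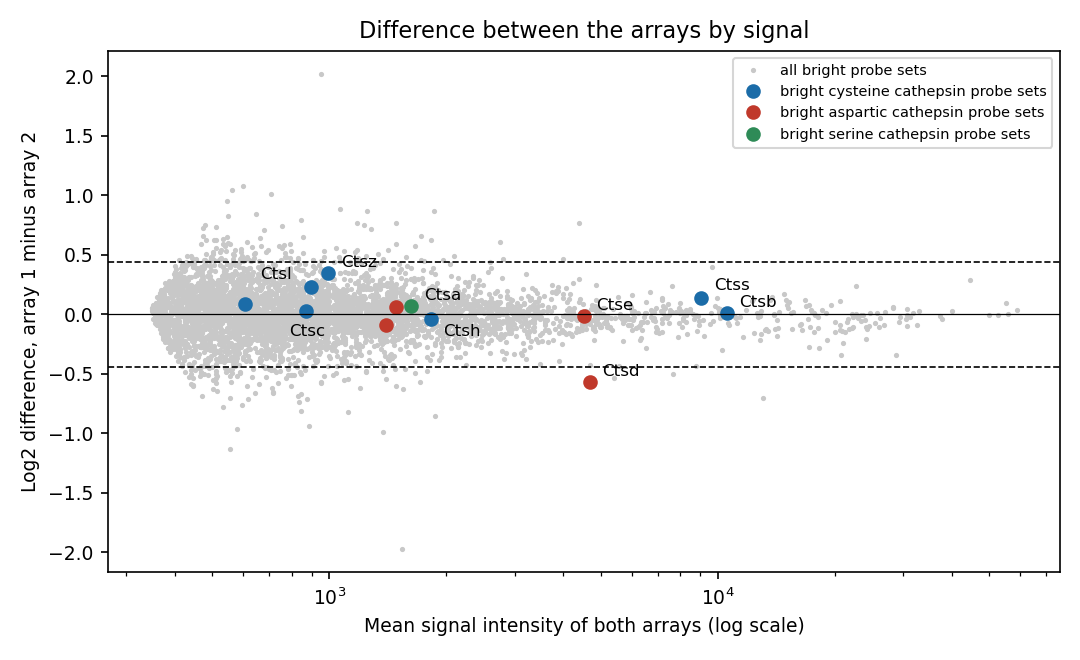
Log2 difference between the arrays, array 1 minus array 2 (y axis), against the mean signal of both arrays (x axis, log scale) for all 4708 bright probe sets in grey and the 12 bright cathepsin probe sets in colour, named at the probe set used for each gene. Dashed lines mark the 95% limit of absolute differences, 0.44 on the log2 scale. Ctsd, at -0.57, is the cathepsin outside these lines.

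Cystatins and Ctla2 genes, listed by name as cathepsin inhibitors, were bright in 3 of 6 measured cases, a share near the 45.2% of all genes. Cystatin C, Cst3, which is secreted and taken up by cells, gave 9195 on array 1 and 11282.7 on array 2. Cystatin B, Cstb, the inhibitor of the cytosol, gave 1911.1 and 1924.8, and the leukocyte cystatin Cst7 gave 364.8 and 349.3, just above the cutoff. Ctla2b, an inhibitor related to cathepsin propeptides, gave 160.6 and 218.5. Its relative Ctla2a, at 3.8 and 18.7, and the cystatin Cst9, at 20.9 and 60.7, lay among the bacterial controls. Probes of Ctla2a were selected under relaxed rules, as the suffix _r_at tells.

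Among 5 measured proteases that are not members but share the cathepsin name or the pepsin family, 1 was bright, against 45.2% of all genes. The bright one was the aspartic protease Napsa, at 2975.1 on array 1 and 3595.4 on array 2. Ctsg, counted among the 5 for its name, is given above. Ctsf, a cysteine cathepsin, gave 320.5 and 333.3, and Ctsw, the cathepsin of cytotoxic lymphocytes, gave 212.4 and 238.4. Cts7, of a cathepsin group known from mouse placenta, gave 3.2 and 4.8, and its probe set carries the suffix _r_at. All but Napsa and Cts7 lay between the highest bacterial control and the cutoff.

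Genes related to cathepsins and lysosomes were read from lists by role. Some of them work elsewhere, such as the granule proteases, the inhibitors and the regulators. The share over all lists is therefore not one of the lysosome alone. Of 79 measured genes on 9 lists, each counted once, 57 or 72.2% were bright, against 45.2% of all genes. All 10 lysosomal membrane proteins were bright, with the main membrane glycoproteins Lamp1, at 7683 on array 1 and 7209.3 on array 2, and Lamp2, at 1027 and 1304.3, and the tetraspanin Cd63 at 1535.6 and 1481.8. All 14 measured genes of the vacuolar proton pump, which acidifies lysosomes and so activates cathepsins, were bright. Subunits of its membrane-bound sector gave 393.1 and 352.1 for Atp6v0a1, 2639.3 and 2862.9 for Atp6v0b, and 1409.8 and 1582.7 for Atp6v0d1.

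Other lysosomal hydrolases, some of them proteases too, were bright in 14 of 22 cases, or 63.6%, against 45.2% of all genes. Lgmn, the asparagine-specific protease that processes several cathepsins, gave 940.5 on array 1 and 721.2 on array 2. Gusb, the beta-glucuronidase, gave 399.9 and 441.3, and Hexa, the alpha chain of hexosaminidase, gave 1362.1 and 1489.8. The other 8 were not bright, and 3 of them did not outshine every bacterial control on both arrays.

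The sorting machinery was bright in 6 of 9 cases, against 45.2% of all genes. Igf2r, the large mannose 6-phosphate receptor, gave 370.3 on array 1 and 397.1 on array 2, whereas the small receptor M6pr, at 33.4 and 57.2, lay among the bacterial controls. Gnptab and Gnptg, subunits of the enzyme that makes the mannose 6-phosphate tag, gave 98.1 and 99.9, and 137.6 and 20.4. Gnptab outshone every bacterial control on both arrays and Gnptg on array 1 alone. Neither measured regulator of lysosomal genes was bright. Tfeb gave 123.5 and 189.5, and the related factor Mitf, at 94.2 and 75, did not exceed the highest bacterial control on either array.

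**Figure D4:**
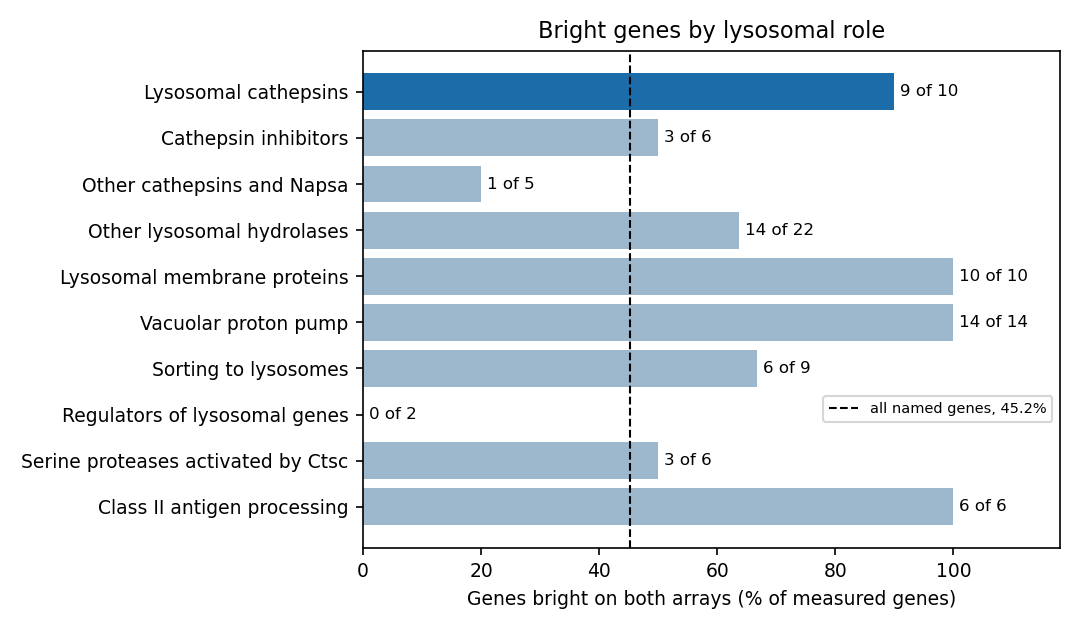
Percent of measured genes that were bright on both arrays (x axis), for the lysosomal cathepsins in dark blue and 9 lists of related genes in light blue (rows), with the number bright of the number measured beside each bar. The dashed line is the share of all genes, 45.2%. Membrane proteins, the proton pump and class II antigen processing were bright throughout, the cathepsins in 9 of 10 cases, and the regulators in 0 of 2.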

How the data were processed

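The table that the authors deposited holds linear signal intensity values of 12488 probe sets for 2 arrays of 1 group. The software behind them and detection calls are not given in the sources used here. The mean without the lowest and highest 2% was 500.265 on array 1 and 500.278 on array 2, so the deposited values had been scaled to a common level, which hides any difference in total signal. Arrays hold no read depth, and their number limits the precision.

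The 66 control probe sets were left out of percentiles and counts. The platform's annotation named 1 gene for 10833 probe sets, several for 396 and none for 1193, and 10817 of the first matched RefSeq (GRCm38.p6) by gene identifier. Values were used as deposited, with values under the 20th percentile of an array (41.8 on both) raised to it before taking log2. Where a gene had several probe sets, the one brightest on the log2 scale stood for it. The pooled SD is the square root of the mean squared log2 difference divided by 2, checked on simulated data. All members are named, with the first 3 measured genes of each list and all bright or all other genes of a list where they numbered 5 or fewer. Members and lists were chosen with earlier results of these data known. Python 3.11.15, numpy 2.4.6, pandas 2.3.3 and matplotlib 3.10.9 were used. Alternatives were other cutoffs, floors and normalizations, each array alone, the mean over probe sets, and probe sets with a suffix such as _s_at or _f_at left out.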

Additional observations from a re-analysis of the deposited data

How the results depend on the processing

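Of 79 alternative values, 72 stayed within a set limit. The limit was the spread between the arrays or, for counts and the pooled SD, a change of 1.5 times. Many of the 72 could not have moved. The level of a gene on either array always lies within that spread of its mean. No probe set standing for a cathepsin has a suffix, so leaving suffixed ones out changed no gene level. The count of 9 of 10 could not rise by 1.5 times. The 72 are thus no measure of robustness. The bright cathepsin genes, 9 of 10, became 10 with the 50th percentile or the highest bacterial control as cutoff, which 55.7% and 73.9% of all genes passed. They numbered 9 at the 75th percentile, which 28.5% passed, 9 on either array taken singly, where 47.6% passed, and 8 where probe sets of a gene were averaged, which 38.3% passed. The related lists, 57 of 79 genes, held 63 bright genes at the 50th percentile and 69 above the highest bacterial control. They held 42 at the 75th percentile, 49 with averaged probe sets, 58 on array 1 alone and 57 on array 2 alone. Without suffixed probe sets 53 of 73 were bright, against 43.4% of all genes. The median log2 signal of cathepsin genes moved to 10.31 with averaged probe sets and to 10.76 with a pseudocount of 16. The pooled SD of bright cathepsin probe sets became 0.0994 without Ctsd, an alternative added after the data were seen. With averaged probe sets Ctsb and Ctse moved to 543 and 2112, Ctsc moved to 115, a value set in part by the floor, and Ctsb moved to 10616 with quantile normalization. With the background limit at the median plus 3 SD of the bacterial controls, 656 on array 1 and 486 on array 2 and so above the cutoff for bright, 11 of 17 cathepsin probe sets exceeded it, against 24.2% of all. No paired analysis was possible because there is 1 group. Signals near the bacterial controls, as for Ctsc at 2 of its 3 probe sets, give no level.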

Other observations

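Among the 57 bright genes of the related lists, 2 or 3.51% lay beyond the gap that 95% of bright probe sets kept. Over all bright probe sets the share was 5.01%, so the lists held no more such genes than the background. Laptm4a, a membrane protein of late endosomes and lysosomes, gave 4629.1 on array 1 and 3342.8 on array 2. Its log2 difference, array 1 minus array 2, was 0.47. Atp6v1c1, a subunit of the proton pump, gave 400.7 and 624.3, a log2 difference of -0.64, and its only probe set carries the suffix _r_at. Laptm4a was only just past the limit of 0.44, and Atp6v1c1 was close to the cutoff for bright on array 1. Like Ctsd, each was the only gene of its list beyond the limit. The directions differed: Laptm4a was higher on array 1, and Ctsd and Atp6v1c1 were higher on array 2.

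Several lysosomal proteins that work beside cathepsins were read with a close match between the arrays. Psap, the precursor of the saposins that help break down sphingolipids, gave 8762.7 on array 1 and 9089.1 on array 2, and the cholesterol carrier Npc2 gave 2588.3 and 2531.9. The lysosomal mannosidase Man2b1 gave 4069.9 and 4153.4, and the tripeptidyl peptidase Tpp1 gave 1886.9 and 1801.3. These genes were chosen after their values were seen.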
